A study of Mus musculus with 17 samples.

Results

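The HoxA cluster was followed through 9 of the 34682 genes of a limb bud RNA-seq table: Hoxa3, Hoxa4, Hoxa5, Hoxa7, Hoxa9, Hoxa10, Hoxa11, the antisense row Hoxa11as, and Hoxa13. They were taken by name, all 9 passed the filter on low counts, and they are ordered here along the cluster from the 3′ to the 5′ end. The 15 libraries came from E12.5 mouse limb buds and fall into 6 groups: Dup-C (n = 2), Dup-L (n = 2), Dup-LΔBor (n = 4), ΔBor het (n = 2), ΔBor hom (n = 1) and wild type, WT (n = 4). Dup-C and Dup-L each duplicate sequence at the Sox9/Kcnj locus, ΔBor deletes a boundary there, and Dup-LΔBor joins both kinds of change. The 4 columns used as Dup-LΔBor are not named so: their header joins Sox9, Dup, LacZ and Del, and they were given to that group because it is the only one with a duplication and a deletion, so its identity is inferred. The study asks how such structural variants alter gene activity, and the HoxA cluster lies on chromosome 6, away from that locus. The labels give no zygosity for Dup-C, Dup-L and Dup-LΔBor, no strain, and neither the limb taken nor whether replicates were separate embryos, so that the spread behind each p-value may be technical only.

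Hox genes encode homeodomain transcription factors that give cells their position along the body and, in the limb, along the axis from shoulder to fingertip. Genes at the 3′ end of a cluster are switched on early and closer to the trunk, and genes at the 5′ end later and farther out. In the mouse limb, Hoxa11 acts in the forearm segment and Hoxa13 in the future hand and foot, and the 2 domains come to exclude each other. Transcription antisense to Hoxa11, which depends on HOXA13 and HOXD13 in mouse, takes place in the distal limb where Hoxa11 is off.

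Library numbers in the column headers fall into 2 ranges, and HoxA levels differed between them. The higher range holds the 4 Dup-LΔBor libraries and WT 3 and WT 4 (6 libraries), and the lower range holds Dup-C, Dup-L, both ΔBor groups and WT 1 and WT 2 (9 libraries). Total counts ran between 34486256 and 53711742 per library. The summed level of 6 limb mesenchyme markers was 896 to 1290 CPM (read counts scaled to library size) over all libraries. Of the trunk endoderm list, Foxa1 and Foxa2 stayed at 0.183 CPM or less, and Shh reached 0.564 CPM in Dup-C. Markers of somite and trunk skeleton summed to 5.58 to 13.4 CPM, and those of neural tube and neurons to 5.58 to 16.9 CPM. Pitx1, the hindlimb determinant, had 0.518 and 0.677 CPM in the Dup-L pair, 1.83 CPM in WT 2 and WT 4 alike, and 39.9 to 116 CPM in the other 11 libraries. Tbx5, its forelimb counterpart, had 184 to 186 CPM in Dup-L, and 233 and 191 CPM in those same WT libraries. In the other 11 libraries it had 86.2 to 136 CPM, so it was lower there but far from absent. Levels in whole limb buds cannot tell fewer cells of a type from less RNA per cell.

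Hoxa11 and its antisense partner overlap, which limits what an unstranded library can say of either. The kit named in the labels does not mark strand, so a read from bases that both genes use cannot be given to one of them. In the GENCODE M21 annotation of GRCm38, exons of Hoxa11 and of the antisense gene Hoxa11os share 800 bases, which is 35.0% of the exon bases of Hoxa11 and 26.0% of those of Hoxa11os. The table holds 2 antisense rows, Hoxa11as and Hoxa11os, and RefSeq gives Hoxa11as as a synonym of Hoxa11os. Hoxa11as carried 4.41% of the counts of the 2 rows combined, with 6 to 122 counts per library against 472 to 2036 for Hoxa11os. Which transcript the Hoxa11as row stands for has no statement in the sources used here, so its values below are those of the row of that name. The starts of both genes are shown because reads cannot be assigned there; they come from RefSeq on GRCm38.p6, written 5′ to 3′ on the strand of each gene, and the last 50 of the 300 bases follow the start. Capitals mark bases that lie in exons of both genes: 50 bases of the Hoxa11 window (chr6:52245761-52246060, minus strand) and 282 bases of the Hoxa11os window (chr6:52244993-52245292, plus strand).
Hoxa11: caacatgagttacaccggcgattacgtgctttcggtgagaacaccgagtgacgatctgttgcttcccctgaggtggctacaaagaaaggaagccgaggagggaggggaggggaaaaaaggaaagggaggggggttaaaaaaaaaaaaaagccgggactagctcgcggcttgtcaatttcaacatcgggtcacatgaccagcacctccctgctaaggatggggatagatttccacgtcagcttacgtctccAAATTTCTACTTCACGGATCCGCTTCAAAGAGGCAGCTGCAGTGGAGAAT
Hoxa11os: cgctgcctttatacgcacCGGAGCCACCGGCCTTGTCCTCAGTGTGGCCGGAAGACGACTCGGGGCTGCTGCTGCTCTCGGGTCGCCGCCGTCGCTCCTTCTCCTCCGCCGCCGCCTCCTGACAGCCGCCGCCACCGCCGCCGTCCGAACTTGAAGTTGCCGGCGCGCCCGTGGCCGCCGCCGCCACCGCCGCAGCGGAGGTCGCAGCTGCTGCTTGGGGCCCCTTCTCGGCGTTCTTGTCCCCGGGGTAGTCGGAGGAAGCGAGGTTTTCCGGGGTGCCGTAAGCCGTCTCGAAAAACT
All 50 bases that follow the Hoxa11 start and all 50 that follow the Hoxa11os start are thus in exons of both genes.

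Start windows were found for 7 of the 9 genes. Among 32851 such windows of the RefSeq table the median GC content was 52.7%, and the HoxA windows held between 49.7% (Hoxa9) and 81.0% (Hoxa13). Hoxa13 stood at the 99.3 percentile of all windows, Hoxa11 at the 43.0 percentile. Hoxa13 is shown because its transcript was also GC-rich (59.8%, the 94.7 percentile of the genes with a value), and joint offsets for GC content and length moved its fold change as given below. The parts of GC content and of length in that move were not separated. Its window (chr6:52260831-52261130, minus strand, GRCm38.p6) has the 45 CG pairs in capitals.
Hoxa13: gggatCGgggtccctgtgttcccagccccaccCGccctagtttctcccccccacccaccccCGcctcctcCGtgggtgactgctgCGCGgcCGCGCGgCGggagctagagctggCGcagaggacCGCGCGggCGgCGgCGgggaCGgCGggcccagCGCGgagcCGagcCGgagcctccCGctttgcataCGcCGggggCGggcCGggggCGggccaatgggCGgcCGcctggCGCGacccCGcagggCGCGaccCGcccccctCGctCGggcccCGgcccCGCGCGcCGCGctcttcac
The Hoxa11 window held 15 CG pairs and the Hoxa11os window 41.

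Per length of transcript, the 5′ part of the cluster was far more abundant than the 3′ part. The FPKM values made by the authors (fragments scaled by transcript length and library size) allow levels of different genes to be set side by side. Hoxa10, a regulator of the upper limb segment, had the highest median rank, with 23.7 to 67.0 FPKM over the 15 libraries, followed by Hoxa13 with 24.9 to 38.5 FPKM and Hoxa9 with 17.4 to 39.0 FPKM. Hoxa11 came next, with 6.31 to 24.0 FPKM, and was below Hoxa13 in 15 of 15 libraries. The 3′ genes were lower: Hoxa5 had 4.04 to 7.52 FPKM, Hoxa3 2.58 to 5.11 FPKM, Hoxa7 1.25 to 2.86 FPKM and Hoxa4 0.470 to 1.06 FPKM. Hoxa11as had 0.0800 to 1.69 FPKM.

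Parts of that order were the same in every library and parts were not. Hoxa11 exceeded Hoxa5, Hoxa3 exceeded Hoxa7 and Hoxa7 exceeded Hoxa4 in 15 of 15 libraries, and Hoxa5 exceeded Hoxa3 in 14. Hoxa10 exceeded Hoxa9 in 14 libraries. The neighbours Hoxa13 and Hoxa9 could not be ordered, since Hoxa9 was the higher in 6 of 15. Hoxa4 exceeded Hoxa11as in 10 of 15 libraries but in only 1 of the 6 of the higher number range. Hoxa11os exceeded Hoxa11as in 15 of 15 libraries and exceeded Hoxa11 in 3, all 3 of them in the higher range.

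**Figure D1:**
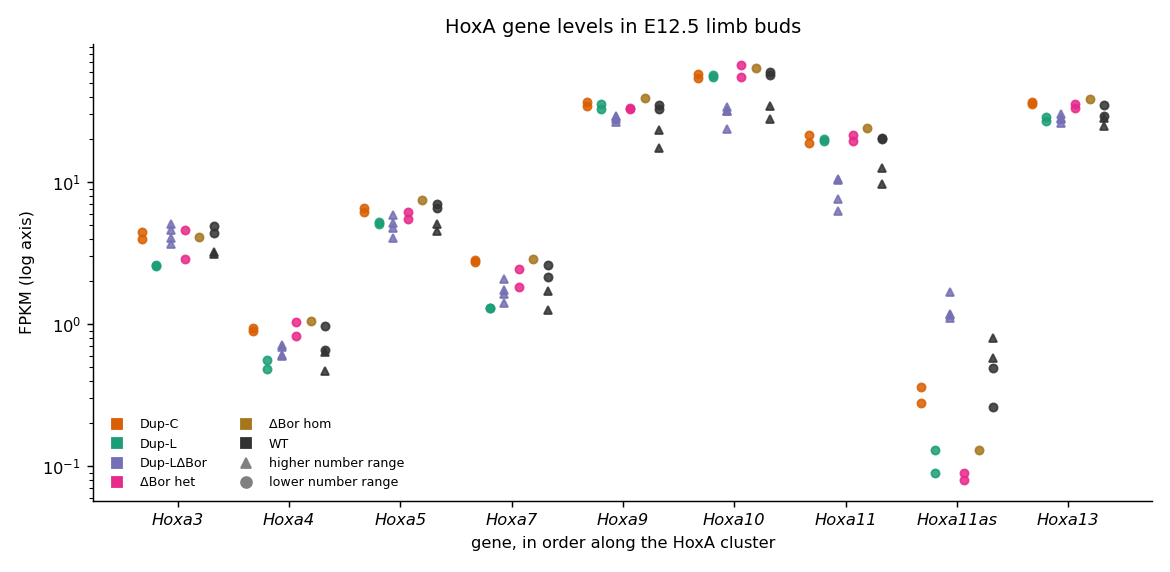
Levels of the 9 HoxA genes in each of 15 libraries, as FPKM on a log axis, with genes in order along the cluster and groups side by side within each gene, WT last. Circles are libraries of the lower and triangles of the higher number range; Hoxa10 and Hoxa11 triangles lie below all circles, while Hoxa11as triangles lie above them.

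The central and 5′ genes Hoxa9, Hoxa10 and Hoxa11 fell in the higher number range. In the edgeR fit with a term for range, which rests on WT 3 and WT 4 against WT 1 and WT 2, Hoxa9 fell by 0.74 on the log2 scale (SE 0.11, edgeR adjusted p = 0.0032). Hoxa10 fell by 0.90 (SE 0.14, edgeR adjusted p = 0.0044), and Hoxa11, the forearm gene, fell by 0.86 (SE 0.20, edgeR adjusted p = 0.031). Hoxa13 differed by -0.27 (SE 0.11, edgeR adjusted p = 0.19) and Hoxa11as by 0.87 (SE 0.34, edgeR adjusted p = 0.16), neither past the threshold of 0.05. So 3 of 9 HoxA genes changed with range, beside 3.91% of the 17655 genes tested. The CPM ranges of the 6 and 9 libraries did not overlap for 4 of the 9 genes (Hoxa9, Hoxa10, Hoxa11 and Hoxa11as), beside 14.5% of all genes tested. No source used here says what the number ranges stand for, and their part in the group differences below is given by fits with that term and by fits within 1 range.

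**Figure D2:**
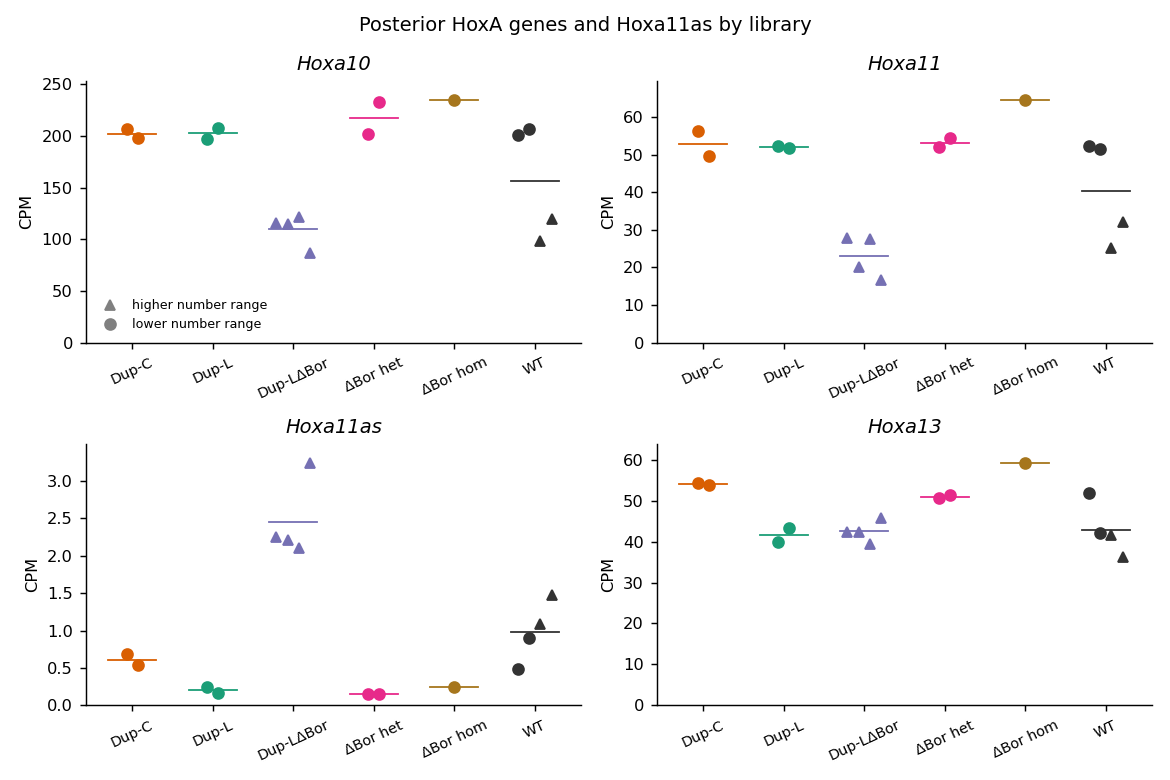
CPM of Hoxa10, Hoxa11, Hoxa11as and Hoxa13 in each library by group, WT at the right, with a line at each group's mean; circles are the lower and triangles the higher number range, and each axis starts at 0. The 2 WT triangles for Hoxa10 and Hoxa11 sit with the Dup-LΔBor triangles and apart from the 2 WT circles.

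No HoxA gene was called in Dup-C against WT, in a fit that called 1 of 17655 genes. The log2 fold change was above 0 for 8 of 9 HoxA genes, with a median of 0.37 against -0.01 for all genes. With edgeR, 0 of 9 passed the threshold, beside 0.00566% of all genes tested, and 3 of 9 had an unadjusted p under 0.05, beside 2933 of the 17655 genes tested. Hoxa13 had 54.3 and 53.9 CPM in Dup-C, against 51.8, 42.1, 41.5 and 36.2 CPM in WT. Both Dup-C libraries were above all WT libraries, and the log2 fold change was 0.33 (SE 0.11, edgeR adjusted p = 0.25). Hoxa7, a mid-cluster gene of axial patterning, had 6.34 and 6.64 CPM in Dup-C, against 6.01, 4.83, 3.90 and 2.80 CPM in WT (log2 fold change 0.56, SE 0.24, edgeR adjusted p = 0.27). Hoxa9 was the third gene whose groups did not overlap (19.4% of all genes tested did not), with a log2 fold change of 0.41 (SE 0.19). Within the lower range the values were 0.19 (SE 0.12) for Hoxa13, 0.25 (SE 0.20) for Hoxa7 and 0.08 (SE 0.09) for Hoxa9. Without WT 1, Hoxa7 (0.75, edgeR adjusted p = 0.044) and Hoxa13 (0.44, edgeR adjusted p = 0.021) passed the threshold, and 1589 of all genes did in place of 1. WT 1 was the only WT library of the lower range with high Pitx1 (59.8 CPM, against 1.83 CPM in WT 2). Dup-C had 88.1 and 69.2 CPM of Pitx1, so that fit lacked the WT library most like Dup-C in range and Pitx1.

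Dup-L against WT lowered Hoxa11as. The row had 0.245 and 0.163 CPM in Dup-L (9 and 6 counts), against 0.483, 0.897, 1.09 and 1.47 CPM in WT (25, 50, 57 and 53 counts). Both Dup-L libraries lay below all WT libraries, and the log2 fold change was -2.24 (SE 0.45, edgeR adjusted p = 0.0028). It was 1 of 9 HoxA genes that passed, beside 32.4% of all genes tested. For 2 of the 9, Hoxa3 and Hoxa11as, the groups did not overlap, beside 51.0% of all genes. Without Dup-L 2 the fold change was -1.97 and no longer passed (edgeR adjusted p = 0.057), and with Pitx1 as a covariate it was -2.71 (edgeR adjusted p = 0.067). Within the lower number range it was -1.79 (SE 0.45, edgeR adjusted p = 0.029).

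Markers of limb cell types were read in the same comparison, in which 32.4% of all genes tested were called. Of 6 limb mesenchyme markers in Dup-L against WT, Prrx1 rose (log2 fold change 0.48, edgeR adjusted p = 0.010) and 3 fell: Msx1 by 1.73, Lmx1b by 1.13 and Prrx2 by 0.69. Of 4 surface ectoderm markers 2 fell, Krt14 by 0.71 (edgeR adjusted p = 0.0041) and Krt5 by 0.64, and their summed level was 398 to 542 CPM in Dup-L, against 550 to 872 CPM in WT. The ridge gene Fgf8 fell by 1.55 (1 of 3), the neuronal gene Tubb3 by 0.93 (the only 1 tested of 4), the endothelial gene Cdh5 by 0.38 (1 of 3) and the macrophage gene Csf1r by 0.41 (1 of 3). The glial gene Sox10 fell by 0.56, and 0 of 4 muscle and 0 of 3 erythroid markers passed. In ΔBor het Krt14 (-0.70, edgeR adjusted p = 0.039) and Tubb3 (-0.93, edgeR adjusted p = 0.042) fell against WT, beside 4.03% of all genes called. In Dup-LΔBor Sox10 fell against WT (-0.84), beside 3.85% of all genes called. Krt14 had a log2 fold change of -0.96 in the single ΔBor hom library against WT. The part of these cell types in the HoxA values was not tested.

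At the 3′ end, Hoxa3 and Hoxa7 were low in Dup-L. Hoxa3, best known for its part in the throat and neck, had 7.60 and 7.56 CPM in Dup-L, against 12.7, 13.8, 9.33 and 8.86 CPM in WT. Dup-L lay below all WT libraries, but the log2 fold change of -0.56 (SE 0.21, edgeR adjusted p = 0.052) missed the threshold. Hoxa7 had 2.97 and 3.06 CPM in Dup-L, against 6.01, 4.83, 3.90 and 2.80 CPM in WT, with WT 4 below both Dup-L libraries (log2 fold change -0.55, SE 0.25, edgeR adjusted p = 0.11). With the number range as a term both fell, Hoxa3 by 0.81 (edgeR adjusted p = 0.012) and Hoxa7 by 0.84 (edgeR adjusted p = 0.018) on the log2 scale, and 3 of 9 HoxA genes passed, beside 23.7% of all genes in that fit. Leaving out WT 3 or WT 4 also let Hoxa3 pass (-0.65 both times, edgeR adjusted p = 0.035 and 0.029), leaving out WT 4 let Hoxa7 pass (-0.70, edgeR adjusted p = 0.027), and leaving out WT 2 let Hoxa9 pass (0.51, edgeR adjusted p = 0.046).

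In WT, each number range holds 1 library high and 1 low in Pitx1, so that HoxA levels can only be described by pairs. The library low in Pitx1 had the lower Hoxa7 in each range: WT 2 had 4.83 CPM against 6.01 CPM in WT 1, and WT 4 had 2.80 CPM against 3.90 CPM in WT 3. Evx1, a homeobox gene beside Hoxa13, showed the same order more steeply, with 2.80 CPM in WT 2 against 10.003 CPM in WT 1 and 1.94 CPM in WT 4 against 5.29 CPM in WT 3, and it had 2.40 and 2.30 CPM in Dup-L. Hoxa3 did not keep that order, being higher in WT 2 (13.8 CPM) than in WT 1 (12.7 CPM). Hoxa4, Hoxa5 and Hoxa13 kept it in both ranges, Hoxa9, Hoxa10 and Hoxa11as had the opposite order in both, and Hoxa11 was mixed. Some of these differences were small, as for Hoxa10 with 206 CPM in WT 2 against 201 CPM in WT 1. Each order rests on 1 library against 1, and the share of all genes with the same order in both ranges was not computed. The orders are therefore a description only. Hoxa11as, low in Dup-L, had 0.897 CPM in WT 2 against 0.483 CPM in WT 1. It had 1.47 CPM in WT 4 against 1.09 CPM in WT 3. The part of limb type in the Dup-L values was not tested beyond the covariate, under which 0 of 9 HoxA genes and 0 of all genes passed in edgeR.

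Hoxa10 and Hoxa11 were close to WT of the same number range in Dup-L. Hoxa10 had 197 and 207 CPM in Dup-L, against 201, 206, 98.8 and 119 CPM in WT, and Hoxa11 had 52.2 and 51.8 CPM in Dup-L, against 52.4, 51.4, 25.3 and 32.1 CPM in WT. Within the lower range their log2 fold changes were -0.05 (SE 0.11) and -0.04 (SE 0.10). Hoxa13 had 39.9 and 43.3 CPM in Dup-L, against 51.8, 42.1, 41.5 and 36.2 CPM in WT (log2 fold change -0.05, SE 0.12). Dup-L 1 lay below both WT libraries of its range, and within that range the value was -0.22 (SE 0.12, edgeR adjusted p = 0.21). With offsets for GC content and length, the Hoxa13 value became 0.47; a smooth curve on GC and length accounted for 39.8% of the variance of all log2 fold changes between Dup-L and WT.

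Dup-LΔBor against WT raised Hoxa11as. The row had 2.25, 2.21, 2.10 and 3.24 CPM in Dup-LΔBor (108, 83, 103 and 122 counts), against 0.483, 0.897, 1.09 and 1.47 CPM in WT. All 4 Dup-LΔBor libraries were above all 4 WT libraries, and the log2 fold change was 1.33 (SE 0.27, edgeR adjusted p = 0.023). This was 1 of 9 HoxA genes past the threshold, beside 3.85% of all genes tested, and the only one of the 9 whose groups did not overlap, beside 12.3% of all genes. Against WT 3 and WT 4 alone, which share its number range, the fold change was 0.93 (SE 0.26, edgeR adjusted p = 0.16), and with the range as a term it was 0.94 (edgeR adjusted p = 0.16). Leaving out single libraries also ended the call: edgeR gave adjusted p = 0.050 without R2, 0.062 without R3, 0.053 without R5 and 0.060 without WT 2.

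Hoxa11 and Hoxa10 had lower means in Dup-LΔBor than in WT, without passing the threshold. Hoxa11 had 27.9, 20.0, 27.5 and 16.8 CPM in Dup-LΔBor, against 52.4, 51.4, 25.3 and 32.1 CPM in WT. R2 and R4 lay above WT 3, so the groups overlapped, and the log2 fold change was -0.81 (SE 0.22, edgeR adjusted p = 0.059). Hoxa10 had 116, 115, 122 and 86.4 CPM in Dup-LΔBor, against 201, 206, 98.8 and 119 CPM in WT (log2 fold change -0.51, SE 0.20, edgeR adjusted p = 0.15). Within the higher range the log2 fold changes were -0.32 (SE 0.21, edgeR adjusted p = 0.53) for Hoxa11 and 0.00 (SE 0.14) for Hoxa10. Without WT 3, both passed (Hoxa11 -0.97, edgeR adjusted p = 0.017; Hoxa10 -0.68, edgeR adjusted p = 0.032), and without WT 4 Hoxa11 did (-0.90, edgeR adjusted p = 0.037).

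Hoxa9 behaved differently from its 5′ neighbours. It had 104, 108, 107 and 99.4 CPM in Dup-LΔBor, against 120, 125.1, 63.6 and 83.1 CPM in WT, so that the Dup-LΔBor libraries stood between the 2 pairs of WT libraries. Its log2 fold change was 0.09 (SE 0.16, edgeR adjusted p = 0.77), but with the range as a term it was 0.51 (SE 0.10, edgeR adjusted p = 0.039) and within the range 0.50 (SE 0.11, edgeR adjusted p = 0.084). Hoxa13 had 42.3, 42.4, 39.5 and 45.7 CPM in Dup-LΔBor, against 51.8, 42.1, 41.5 and 36.2 CPM in WT, and was within 0.02 of it on the log2 scale (-0.02, SE 0.10). The 3′ genes Hoxa3, Hoxa4, Hoxa5 and Hoxa7 had log2 fold changes between -0.19 and 0.19. With the range as a term, Hoxa3 was at 0.49 (SE 0.17, edgeR adjusted p = 0.21), and Hoxa4 and Hoxa7 turned to 0.26 (SE 0.24) and 0.25 (SE 0.20), none past the threshold.

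ΔBor het against WT lowered Hoxa11as. The row had 0.159 and 0.157 CPM in ΔBor het, 6 counts in each library, against 0.483, 0.897, 1.09 and 1.47 CPM in WT. Both het libraries were below all WT libraries, and the log2 fold change was -2.60 (SE 0.47, edgeR adjusted p = 0.020). It was 1 of 9 that passed, beside 4.03% of all genes tested, and the only one of the 9 whose groups did not overlap, beside 26.8% of all genes. Within the lower number range the fold change was -2.13 (SE 0.47, edgeR adjusted p = 0.19), and with the range as a term it was -2.11 (edgeR adjusted p = 0.076). Without ΔBor het 1 it was -2.62 (edgeR adjusted p = 0.33).

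No other HoxA gene passed in ΔBor het. Hoxa10 had 202 and 233 CPM in ΔBor het, against 201, 206, 98.8 and 119 CPM in WT (log2 fold change 0.48, SE 0.24, edgeR adjusted p = 0.24). Hoxa11 had 52.0 and 54.5 CPM in ΔBor het, against 52.4, 51.4, 25.3 and 32.1 CPM in WT (log2 fold change 0.40, SE 0.26). Hoxa13 had 50.5 and 51.4 CPM in ΔBor het, under the highest WT value of 51.8 CPM, and its log2 fold change of 0.25 (SE 0.12, edgeR adjusted p = 0.19) passed without WT 1 (0.35, edgeR adjusted p = 0.028), in a fit that called 14.2% of all genes. That fit lacked the only WT library of the lower range with high Pitx1, which both ΔBor het libraries also had. Within the lower range the log2 fold changes were 0.08 (SE 0.11) for Hoxa10, 0.02 (SE 0.10) for Hoxa11 and 0.10 (SE 0.12) for Hoxa13. Hoxa3, whose 8.46 and 12.9 CPM in ΔBor het lay far apart, had a log2 fold change of -0.07 (SE 0.20).

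The single ΔBor hom library had the highest level of several HoxA genes, with no gene past the threshold. It gave 64.4 CPM of Hoxa11, 148 CPM of Hoxa9 and 59.1 CPM of Hoxa13, each above the other 14 libraries, and 0.248 CPM of Hoxa11as (9 counts). The WT values were 25.3 to 52.4 CPM for Hoxa11, 63.6 to 125.1 CPM for Hoxa9, 36.2 to 51.8 CPM for Hoxa13 and 0.483 to 1.47 CPM for Hoxa11as. With the spread assumed like that of the other groups, edgeR gave a log2 fold change of 0.46 (SE 0.15, with adjusted p = 0.076) for Hoxa13 and -1.96 (SE 0.59, adjusted p = 0.069) for Hoxa11as. Thus 0 of 9 passed, beside 1.27% of all genes tested, 4 of 9 having an unadjusted p under 0.05 as did 4697 of all genes; DESeq2 called 2 of 9, beside 10.5% of all genes. The library lay outside the WT values for 8 of the 9 genes, as for 59.3% of the 17655 genes tested. Without WT 1, the log2 fold changes were 0.90 for Hoxa4, 0.57 for Hoxa13 and -2.19 for Hoxa11as. That fit lacked the only WT library of the lower range with high Pitx1, which the ΔBor hom library also had. Within the lower range the log2 fold changes were 0.30 (SE 0.12) for Hoxa11, 0.26 (SE 0.11) for Hoxa9, 0.32 (SE 0.14) for Hoxa13 and -1.48 (SE 0.57) for Hoxa11as, none past the threshold.

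Dup-LΔBor against Dup-L changed 4 of 9 HoxA genes, beside 43.6% of all genes tested. Hoxa11as, the antisense row, rose, with 2.25, 2.21, 2.10 and 3.24 CPM in Dup-LΔBor, against 0.245 and 0.163 CPM in Dup-L (log2 fold change 3.57, SE 0.45, edgeR adjusted p = 8.5e-05). Hoxa3 rose, with 15.03, 13.5, 11.8 and 10.8 CPM in Dup-LΔBor, against 7.60 and 7.56 CPM in Dup-L (log2 fold change 0.75, SE 0.21, edgeR adjusted p = 0.0099). Hoxa11 fell, with 27.9, 20.0, 27.5 and 16.8 CPM in Dup-LΔBor, against 52.2 and 51.8 CPM in Dup-L (log2 fold change -1.17, SE 0.26, edgeR adjusted p = 0.0029). Hoxa10 fell, with 116, 115, 122 and 86.4 CPM in Dup-LΔBor, against 197 and 207 CPM in Dup-L (log2 fold change -0.88, SE 0.24, edgeR adjusted p = 0.0097). The groups did not overlap in 7 of the 9 genes, beside 64.7% of all genes tested.

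These 2 groups lie wholly in different number ranges, so the range and the genotype cannot be told apart except through the WT libraries. With the range as a term, Hoxa10 was at 0.02 (SE 0.19) and Hoxa11 at -0.31 (SE 0.26, edgeR adjusted p = 0.43). Hoxa3 and Hoxa11as still rose in that fit, by 1.30 (SE 0.25, edgeR adjusted p = 0.014) and 2.69 (SE 0.51, edgeR adjusted p = 0.013), and Hoxa7 (1.10, edgeR adjusted p = 0.032) and Hoxa9 (0.47, edgeR adjusted p = 0.048) rose as well, so that 4 of 9 passed, beside 13.0% of all genes in that fit. Pitx1 was 40.5 CPM or more in Dup-LΔBor and under 1 CPM in Dup-L. With it as a covariate 1 of 9 HoxA genes passed, Hoxa11as, beside 6.28% of all genes in that fit. Without Dup-L 1, Hoxa3 no longer passed (0.76, edgeR adjusted p = 0.067), and without Dup-L 2 neither Hoxa3 (0.75, edgeR adjusted p = 0.074) nor Hoxa10 (-0.85, edgeR adjusted p = 0.066) did.

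**Figure D3:**
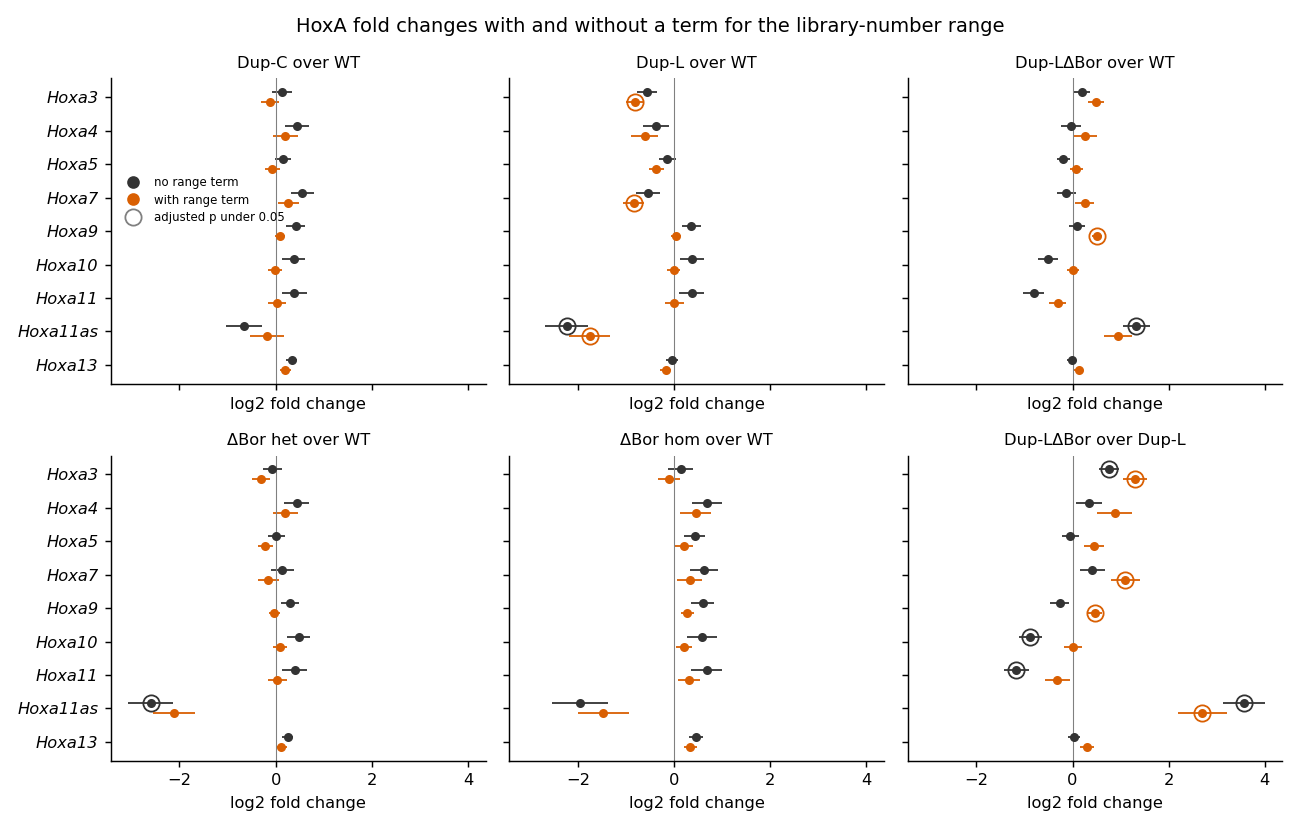
Log2 fold changes of the 9 HoxA genes in 6 comparisons, with bars of 1 SE, from the edgeR fit without (dark) and with (orange) a term for the library-number range; rings mark adjusted p under 0.05 and all panels share 1 axis. The Hoxa10 and Hoxa11 values of Dup-LΔBor over Dup-L move from -0.88 and -1.17 without the term to 0.02 and -0.31 with it.

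The balance of Hoxa13 to Hoxa11, which contrasts hand and foot with forearm, differed between the number ranges. The FPKM ratio of Hoxa13 to Hoxa11 was 1.98 to 4.77 in the 6 libraries of the higher range and 1.34 to 1.90 in the 9 of the lower. In Dup-LΔBor it was 2.66, 3.70, 2.52 and 4.77, against 1.73, 1.43, 2.87 and 1.98 in WT. R2 and R4 lay below WT 3, and on the log2 scale of counts the difference was 0.77 (exact permutation test, two-sided, p = 0.086; 0.17 after adjustment over 10 tests). In Dup-L the FPKM ratio was 1.34 and 1.46, the lower of them below every other library. Groups of 2 against 4 cannot give an exact p below 0.067, and none of the other 4 comparisons passed.

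The antisense row made up a larger share relative to Hoxa11 in Dup-LΔBor. In FPKM, Hoxa11as was 11.2, 15.3, 10.7 and 26.8% of Hoxa11 in Dup-LΔBor, against 1.29, 2.41, 5.94 and 6.34% in WT. All 4 Dup-LΔBor libraries were above all 4 WT libraries, and the log2 count ratio differed by 2.16 (exact permutation test, two-sided, p = 0.029, the smallest that 4 against 4 can give; 0.17 after adjustment over 10 tests). Against WT 3 and WT 4 the difference was 1.27, and the exact permutation p was 0.13, where 4 against 2 cannot go below 0.067. In Dup-L the share was 0.648 and 0.459%, in ΔBor het 0.409 and 0.418% and in ΔBor hom 0.542%, each below WT. With Hoxa11os in place of Hoxa11as, the row with far more counts, the log2 ratio to Hoxa11 in Dup-LΔBor differed from WT by 0.83 (exact permutation test, two-sided, p = 0.029, before adjustment).

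Hoxa11os, like Hoxa11 and unlike Hoxa11as, was lower in the higher number range for WT. It had 23.5, 21.7, 19.9 and 14.8 CPM in Dup-LΔBor, against 26.0, 36.5, 8.99 and 14.97 CPM in WT (log2 fold change -0.12, SE 0.34, edgeR adjusted p = 0.87). With the number range it fell by 1.39 on the log2 scale (SE 0.27, edgeR adjusted p = 0.015). Its edgeR log2 fold change against WT was 0.22 (SE 0.41) in Dup-L and 0.15 (SE 0.41) in ΔBor het, the groups in which Hoxa11as was called lower. All 3 signs turned with the range as a term, to the direction of Hoxa11as, with none past the threshold. In that fit Hoxa11os was at 0.75 in Dup-LΔBor (SE 0.24, edgeR adjusted p = 0.19), at -0.31 in Dup-L (SE 0.26, edgeR adjusted p = 0.42) and at -0.38 in ΔBor het (SE 0.26, edgeR adjusted p = 0.48).

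In log2 CPM, no relation between Hoxa11, Hoxa11as and Hoxa13 passed adjustment over the 3 relations within a range, but 1 did in log2(FPKM + 0.1): Hoxa11 with Hoxa13 in the higher range had r = -0.87 (exact permutation p = 0.015, adjusted p = 0.046). Since Hoxa11 falls into 2 separate sets of libraries, correlations of log2 CPM were read within each range only, with exact permutation tests over 3 relations. The plan was to read them over all libraries with r within ranges beside it, so this reading came after the data were seen. The adjustment ran within each range and did not span both. Hoxa11 and Hoxa13 had r = -0.86 (p = 0.021, adjusted p = 0.063 by exact permutation; rho = -0.83, p = 0.058) in the 6 libraries of the higher range, which became -0.47 in the 4 left without the 2 farthest libraries, so the relation rests on those 2. In the 9 of the lower range they had r = 0.57 (exact permutation p = 0.099, adjusted p = 0.30; rho = 0.53, p = 0.15). Hoxa11as and Hoxa13 had r = 0.60 in the higher range (exact permutation p = 0.19; rho = 0.77, p = 0.10) and 0.04 in the lower (exact permutation p = 0.92; rho = 0.22, p = 0.58). Hoxa11as and Hoxa11 had r = -0.63 (exact permutation p = 0.19; rho = -0.43, p = 0.42) and -0.15 (exact permutation p = 0.76; rho = -0.18, p = 0.64). Without the 2 farthest libraries these became 0.04 and 0.46 for Hoxa11as with Hoxa13, 0.21 and -0.54 for Hoxa11as with Hoxa11, and 0.62 for Hoxa11 with Hoxa13 in the lower range.

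**Figure D4:**
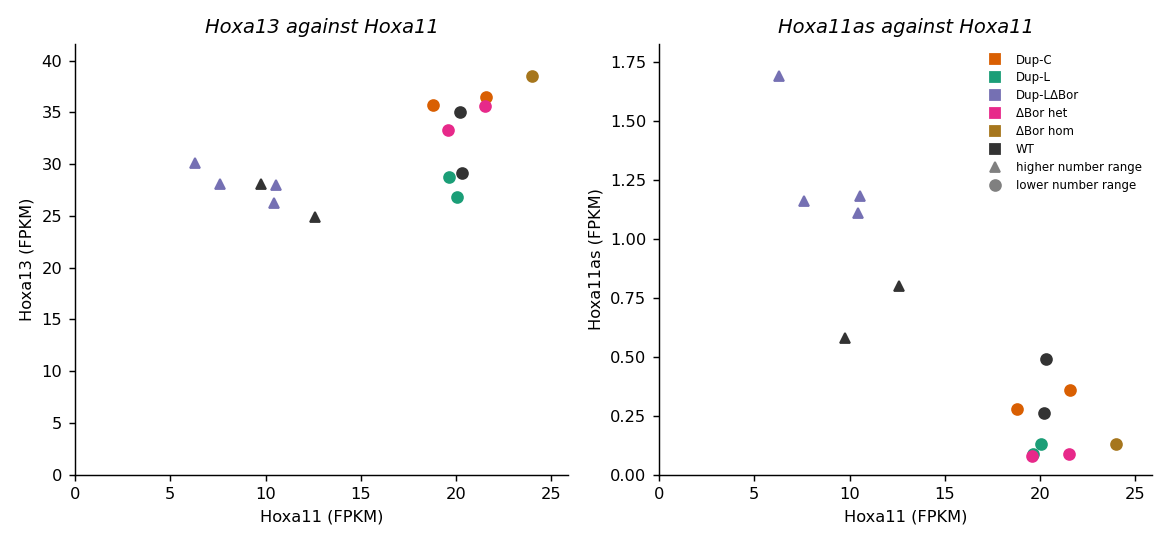
Hoxa13 (left) and Hoxa11as (right) against Hoxa11, all in FPKM, 1 point per library, with colours for groups and shapes for number ranges. Triangles of the higher range lie left of all circles in both panels; Hoxa11as is at 1.11 FPKM or more in the 4 Dup-LΔBor libraries and at 0.800 FPKM or less elsewhere.

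Other genes of the cluster and its flanks were called at about the share of all genes in Dup-L. Of 9 tested genes among Hoxa2, Hoxa6, Evx1, Hotairm1 and flanking genes, 3 rose and 0 fell in Dup-L against WT, beside 32.4% of all genes called (median log2 fold change 0.31, against 0.00 for all genes), and 0 passed in each of the other 4 comparisons with WT. Snx10, a sorting nexin gene, had 18.9 to 19.3 CPM in Dup-L, against 8.83 to 14.7 CPM in WT (log2 fold change 0.72, SE 0.18, edgeR adjusted p = 0.0088). The other 2 were Tax1bp1 (0.35, edgeR adjusted p = 0.028) and Hibadh (0.31, edgeR adjusted p = 0.047). In Dup-LΔBor against Dup-L, 3 of 9 fell, beside 43.6% of all genes called, Snx10 by 1.26 on the log2 scale (SE 0.18, edgeR adjusted p = 0.00015). Hoxa2 and Hoxa6 fell with the number range, by 1.15 (SE 0.27, edgeR adjusted p = 0.031) and 1.22 (SE 0.23, edgeR adjusted p = 0.011) on the log2 scale. Snx10 fell with the range too, by 0.67 (SE 0.13, edgeR adjusted p = 0.015). Dup-LΔBor and Dup-L lie in different ranges, and WT spans both. Hottip, a noncoding RNA beside Hoxa13, did not exceed 0.0818 CPM in any library.

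Partners of HOX proteins and the other posterior Hox genes were measured beside them. Of 8 tested cofactors of the PBX, MEIS and PKNOX families, which bind DNA together with HOX proteins, 0 passed in any of the 5 comparisons with WT. The share of all genes called there ran between 0.00566% in Dup-C and 32.4% in Dup-L. In Dup-LΔBor against Dup-L, 2 of 8 rose, beside 43.6% of all genes called: Pknox2 (log2 fold change 0.69, SE 0.15, edgeR adjusted p = 0.0019) and Pbx4 (0.65, SE 0.19, edgeR adjusted p = 0.013). Of 11 posterior HoxD and HoxC genes, Evx2 counted among them, 2 rose and 3 fell in Dup-L against WT, beside 32.4% of all genes called, and 0 passed in the other 4. Hoxc11, a hindlimb HoxC gene, had 0.488 to 0.545 CPM in Dup-L, against 0.972 to 3.80 CPM in WT (log2 fold change -1.99, SE 0.56, edgeR adjusted p = 0.015). Evx2, the homeobox gene beside Hoxd13, had 5.53 to 6.24 CPM in Dup-L, against 12.8 to 15.6 CPM in WT (log2 fold change -1.23, SE 0.22, edgeR adjusted p = 0.0019). Hoxd10 had 109 to 120 CPM in Dup-L, against 60.0 to 104 CPM in WT (log2 fold change 0.48, SE 0.15, edgeR adjusted p = 0.029). Dup-L lies in the lower number range and WT spans both. The range term was -0.41 (SE 0.15, edgeR adjusted p = 0.14) for Hoxd10, -0.50 (SE 0.54) for Hoxc11 and -0.20 (SE 0.24) for Evx2.

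Genes of the limb segments were measured as well. Of 8 genes linked to HOXA13 in the mouse autopod, 1 rose and 2 fell in Dup-L, beside 32.4% of all genes called, 1 rose in ΔBor het, and 0 passed in the other 3 comparisons with WT. Bmp7, a growth factor gene that HOXA13 binds in mouse, had 93.0 to 103 CPM in Dup-L, against 124 to 280 CPM in WT (log2 fold change -0.94, SE 0.26, edgeR adjusted p = 0.016). Its 279 to 324 CPM in Dup-LΔBor, against 93.0 to 103 CPM in Dup-L, gave a log2 fold change of 1.62 (SE 0.27, edgeR adjusted p = 0.00051). Dup-LΔBor and Dup-L lie in different number ranges, and WT spans both. Bmp7 rose with the range by 0.94 on the log2 scale (SE 0.13, edgeR adjusted p = 0.0025). Bmp2, another growth factor gene, had 46.3 to 49.3 CPM in ΔBor het, against 27.6 to 38.6 CPM in WT (log2 fold change 0.47, SE 0.12, edgeR adjusted p = 0.044). Of 8 genes of the upper and middle segments, Hoxa11 among them, Tbx18 rose in Dup-L (0.47, SE 0.11, edgeR adjusted p = 0.0063) and Alx4 fell in Dup-LΔBor (-0.60, SE 0.15, edgeR adjusted p = 0.045), both against WT. Dup-LΔBor lies wholly in the higher number range, and the range term was -0.47 (SE 0.17, edgeR adjusted p = 0.15) for Alx4 and -0.06 (SE 0.13) for Tbx18.

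Of 8 tested regulators of Hox chromatin, 4 passed in Dup-L against WT, beside 32.4% of all genes, and fewer genes of any kind passed in the other comparisons with WT. The 8, which include Polycomb proteins that keep Hox clusters silent and CTCF that partitions them, gave 3 that rose and 1 that fell in Dup-L, while 2 rose in ΔBor het, 1 rose in ΔBor hom and 0 passed in Dup-C and in Dup-LΔBor. Rnf2, the catalytic subunit of Polycomb complex PRC1, had 205 to 217 CPM in Dup-L, against 115 to 153 CPM in WT (log2 fold change 0.67, SE 0.12, edgeR adjusted p = 0.0019). Suz12, a core subunit of PRC2, had 171 to 189 CPM in Dup-L, against 92.4 to 153 CPM in WT (log2 fold change 0.65, SE 0.18, edgeR adjusted p = 0.012). In Dup-LΔBor against Dup-L, 5 of 8 fell and 1 rose, beside 43.6% of all genes called, with Rnf2 falling by 0.85 on the log2 scale (SE 0.12, edgeR adjusted p = 0.00013). The number-range term was -0.35 (SE 0.11, edgeR adjusted p = 0.088) for Rnf2 and -0.56 (SE 0.15, edgeR adjusted p = 0.053) for Suz12. Dup-L lies in the lower range, Dup-LΔBor in the higher, and WT spans both.

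The genes whose log2 CPM was most like that of a HoxA gene over the 15 libraries are given as a description, since all points share the number ranges and the depth of their libraries. For Hoxa11 these were Fancd2os (Pearson r = 0.98), Chtf8 (0.96), Ccdc23 (0.96), Mrpl40 (0.96) and Sh3yl1 (0.96). For Hoxa11as they were Agpat2 (0.98), Mir6991 (0.98), Pcyt2 (0.97), Mir8094 (0.97) and Hspa1l (0.97). For Hoxa13 they were Hoxb9 (0.95), Cryz (0.93), Hmga2 (0.92), Igf2bp2 (0.92) and BC023483_gene (0.92).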

How the data were processed

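RNA from 15 limb bud libraries was analysed; 2 samples of E17.5 fingertips were not analysed here. Per the submitters' processing notes the tools were STAR, DESeq2 and bedtools 2.17.0 with build mm9; per the labels the libraries were polyA-enriched TruSeq RNA V2. The deposited counts are raw reads per gene. The FPKM values were made by the authors and rounded to 2 decimals. How reads were counted, with which annotation and strand setting, was not found in the sources used here. The 4 columns used as Dup-LΔBor carry another name (Sox9, Dup, LacZ and Del joined, R2 to R5) and were matched by it to the group only, by inference; R4 and R5 carry 1 library number, yet their chi-square per gene of 25.5 lay among the 5.93 to 33.1 of other pairs.

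Counts were fitted with edgeR 4.0.16 (R 4.3.3), with TMM factors, the filterByExpr filter and a two-sided robust quasi-likelihood test, over 15 libraries and 6 groups. Benjamini-Hochberg adjustment ran over 17655 genes, and the threshold was 0.05. CPM are TMM-scaled. SE comes from the F-statistic. Ratios used log2 counts with 0.5 added, and exact permutation tests over libraries (scipy 1.17.1). On data simulated for Dup-LΔBor against WT (17293 genes fitted), 89 of 100 genes changed 2-fold were called, and 95 of 100 changed 4-fold. All genes changed there had a higher mean count than Hoxa11as, and no difference between number ranges was built in. These rates therefore do not carry over to Hoxa11as.

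Alternatives were DESeq2 1.42.0, no count filter, a term for the number range, fits within 1 range, GC and length offsets, Pitx1 as a covariate, a replicate block, another pseudocount and leaving out each library; fits within 1 range and the use of Hoxa11os were added after seeing the data. GC and length came from GENCODE transcripts and covered 86.4% of genes tested, but not Hoxa11as. Named genes are the 9 HoxA genes; from each list at most 4 genes past the threshold, by size of fold change; and the 5 genes most like Hoxa11, Hoxa11as and Hoxa13 by Pearson r. Genes named beyond this were chosen after their values were seen. Some genes of the lists are not reported here. The members and lists were chosen with earlier results of these data known.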

Additional observations from a re-analysis of the deposited data

Results flagged for a closer look

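Hoxa11as in the Dup-LΔBor library R5 stood apart from its group. It had 3.24 CPM, against 2.10 to 2.25 CPM in the other 3 Dup-LΔBor libraries, and the gap to the nearest was 0.862 of the group's range. Of 22 group and measure combinations examined, chance flags about 5%, and this was the only 1. The same library had the lowest Hoxa11 (16.8 CPM) and Hoxa10 (86.4 CPM) of all 15.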

How the results depend on the processing

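Comparisons are against WT unless another group is named. Among the alternative values of HoxA log2 fold changes, 550 kept direction and side of the threshold, 20 lost a call, 26 gained one and 70 turned sign. Hoxa11as kept its direction in each of the 6 comparisons under the alternatives run. Its edgeR adjusted p in Dup-LΔBor was 0.16 with the number range as a term (log2 fold change 0.94) and lay between 0.050 and 0.062 without WT 2 or without R2, R3 or R5. In ΔBor het its edgeR adjusted p was 0.076 with the number range as a term, 0.19 within 1 range and 0.33 without replicate 1. In Dup-L its edgeR adjusted p was 0.067 with the Pitx1 covariate and 0.057 without replicate 2. In ΔBor hom it passed with DESeq2 (adjusted p = 0.039) and, with edgeR, without WT 1 (adjusted p = 0.012). Counts of 6 to 9 reads per library in Dup-L and ΔBor limit the precision of Hoxa11as. Why values moved was not tested.

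With the number range as a term, the number of genes called was 70 in Dup-LΔBor, 32 in ΔBor het, 26 in ΔBor hom and 2298 in Dup-LΔBor over Dup-L, and the number of HoxA genes called was 3 in Dup-L and 0 in ΔBor het. The log2 fold changes that turned sign there were, in Dup-C Hoxa3 (-0.11), Hoxa5 (-0.072) and Hoxa10 (-0.0087), in Dup-L Hoxa10 (-0.0085), in Dup-LΔBor Hoxa4 (0.26), Hoxa5 (0.079), Hoxa7 (0.25), Hoxa10 (0.0093) and Hoxa13 (0.13), in ΔBor het Hoxa5 (-0.21), Hoxa7 (-0.16) and Hoxa9 (-0.025), in ΔBor hom Hoxa3 (-0.11), in Dup-LΔBor over Dup-L Hoxa5 (0.45), Hoxa9 (0.47) and Hoxa10 (0.018). Within 1 number range, the number of genes called was 0 in Dup-C, 3108 in Dup-L, 68 in Dup-LΔBor, 54 in ΔBor het and 25 in ΔBor hom, and the number of HoxA genes called was 3 in Dup-L, 0 in Dup-LΔBor and 0 in ΔBor het. The log2 fold changes that turned sign there were, in Dup-C Hoxa3 (-0.12), Hoxa5 (-0.081) and Hoxa10 (-0.019), in Dup-L Hoxa9 (-0.0078), Hoxa10 (-0.055) and Hoxa11 (-0.043), in Dup-LΔBor Hoxa4 (0.25), Hoxa5 (0.068), Hoxa7 (0.24) and Hoxa13 (0.12), in ΔBor het Hoxa5 (-0.23), Hoxa7 (-0.17) and Hoxa9 (-0.040), in ΔBor hom Hoxa3 (-0.12). With the replicate block, the number of genes called was 0 in Dup-C, 1349 in Dup-L and 38 in ΔBor het, and the number of HoxA genes called was 0 in ΔBor het. The log2 fold changes that turned sign there were, in Dup-C Hoxa3 (-0.096) and Hoxa5 (-0.065), in Dup-L Hoxa10 (-0.034) and Hoxa11 (-0.022), in ΔBor het Hoxa5 (-0.22), Hoxa7 (-0.17) and Hoxa9 (-0.036). With Pitx1 as a covariate, the number of genes called was 0 in Dup-L, 1357 in Dup-LΔBor, 1146 in ΔBor het and 1109 in Dup-LΔBor over Dup-L, and the number of HoxA genes called was 0 in Dup-L and 1 in Dup-LΔBor over Dup-L. The log2 fold changes that turned sign there were, in Dup-L Hoxa4 (0.074), Hoxa5 (0.0016) and Hoxa13 (0.14), in ΔBor het Hoxa5 (-0.075) and Hoxa7 (-0.064), in Dup-LΔBor over Dup-L Hoxa4 (-0.33), Hoxa7 (-0.12) and Hoxa13 (-0.26). With GC and length offsets, the number of genes called was 1735 in Dup-L, 1319 in Dup-LΔBor, 114 in ΔBor het and 43 in ΔBor hom, and the number of HoxA genes called was 2 in Dup-LΔBor. The log2 fold changes that turned sign there were, in Dup-L Hoxa4 (0.0058) and Hoxa13 (0.47), in ΔBor het Hoxa5 (-0.026), in Dup-LΔBor over Dup-L Hoxa4 (-0.11), Hoxa5 (0.047) and Hoxa13 (-0.52). With DESeq2, the number of genes called was 7 in Dup-C, 1565 in Dup-LΔBor, 1906 in ΔBor het and 1862 in ΔBor hom, and the number of HoxA genes called was 2 in Dup-L, 2 in Dup-LΔBor and 2 in ΔBor hom. Without the count filter, the number of genes called was 114 in ΔBor hom, and the number of HoxA genes called was 2 in Dup-L. The log2 fold changes that turned sign there were, in ΔBor het Hoxa5 (-0.0057), in Dup-LΔBor over Dup-L Hoxa5 (0.0073).

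Replicates 1 and 2 of Dup-C, Dup-L and ΔBor het share only a number with WT (same-number deviations correlated at r = -0.18, -0.01 and 0.10), so the block is reported here only. Under it Hoxa11as in Dup-L had adjusted p = 0.052 and in ΔBor het 0.28 with edgeR, and Hoxa3 in Dup-L 0.045.

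Within 1 number range the log2 ratio of Hoxa13 to Hoxa11 was 0.19 in Dup-C and 0.090 in ΔBor het, and that of Hoxa11as to Hoxa11 in Dup-LΔBor 1.27. With Hoxa11os in place of Hoxa11as its log2 ratio to Hoxa11 was 0.028 in Dup-C and -0.20 in ΔBor hom. Without the 2 farthest libraries r was -0.47 for Hoxa11 with Hoxa13 and 0.21 for Hoxa11as with Hoxa11 in the higher number range. With Hoxa11os in place of Hoxa11as, r with Hoxa11 was 0.019 in the higher range and 0.21 in the lower, and r with Hoxa13 was -0.13 in the lower, where regressing out Pitx1 gave -0.092 for Hoxa11as. Where 0 genes were called by edgeR, unadjusted p was under 0.05 for 643 genes in Dup-C within 1 range, 416 with the block, and 4595 in Dup-L with Pitx1; DESeq2 without these terms called 7 in Dup-C and 6083 in Dup-L. The 1589 in Dup-C came without WT 1.

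Leaving out each library in turn, the number of genes called ranged between 1 and 1589 in Dup-C, between 1178 and 5942 in Dup-L, between 80 and 1509 in Dup-LΔBor, between 19 and 2506 in ΔBor het, between 21 and 2759 in ΔBor hom and between 4437 and 7737 in Dup-LΔBor over Dup-L. The number of HoxA genes called ranged between 0 and 2 in Dup-C, between 0 and 3 in Dup-L, between 0 and 3 in Dup-LΔBor, between 0 and 2 in ΔBor het, between 0 and 3 in ΔBor hom and between 2 and 4 in Dup-LΔBor over Dup-L. Log2 fold changes that turned sign without 1 library ranged between -0.11 and 0.058 for Hoxa13 in Dup-L, between -0.17 and 0.19 for Hoxa4 in Dup-LΔBor, between -0.29 and 0.056 for Hoxa7 in Dup-LΔBor, between -0.067 and 0.23 for Hoxa9 in Dup-LΔBor, between -0.091 and 0.087 for Hoxa13 in Dup-LΔBor, between -0.40 and 0.20 for Hoxa3 in ΔBor het, between -0.080 and 0.12 for Hoxa5 in ΔBor het, between -0.048 and 0.33 for Hoxa7 in ΔBor het, between -0.14 and 0.077 for Hoxa5 in Dup-LΔBor over Dup-L and between -0.027 and 0.089 for Hoxa13 in Dup-LΔBor over Dup-L. Log2 ratios ranged between -0.26 and 0.078 for Hoxa13 to Hoxa11 in Dup-C, between 0.59 and 0.96 for Hoxa13 to Hoxa11 in Dup-LΔBor and between 1.71 and 2.48 for Hoxa11as to Hoxa11 in Dup-LΔBor.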
